A study of Mus musculus with 6 samples.

Results

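The 10 genes described here are the inhibitors of the cyclin-dependent kinases and the p53 node of the cell cycle, namely the INK4 family (Cdkn2a, Cdkn2b, Cdkn2c and Cdkn2d), the CIP/KIP family (Cdkn1a, Cdkn1b and Cdkn1c), the phosphatase Cdkn3, and Trp53 with its ubiquitin ligase Mdm2. They were chosen by symbol from the 53819 genes of the count table, and all 10 were present and tested. Bulk RNA-seq was performed on healing flexor digitorum longus (FDL) tendons of the mouse hindpaw, harvested at D28 post-surgery. Each library came from 1 tendon, and each genotype had 3 libraries. DTRScxLin tendons carried Scx-Cre and 1 floxed-stop diphtheria toxin receptor allele (Scx-Cre+; DTR F/+), and WT littermates carried the receptor allele without Cre (Scx-Cre-; DTR F/+). Both genotypes received 5 daily injections of diphtheria toxin (DT), which the study placed at D14 to D18 post-surgery, and male and female mice had surgery at 10 to 12 weeks of age. By Xist and Y-linked counts, WT replicates 1 to 3 read as male, female and male and DTRScxLin replicates 1 to 3 as male, female and female, so sex was not balanced between the genotypes. The sample titles read D28 post-depletion, while the protocol and the study's methods count the 28 days from surgery. Scx-Cre acts in every cell with a history of scleraxis expression, so depletion was not limited to one cell type or state, and how many cells were lost in these 6 tendons was not measured here. Total counts ran from 44104578 to 47570157 among WT libraries and from 42744138 to 48854310 among DTRScxLin libraries.

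Cells pass from G1 to S phase when D-type cyclins with CDK4 or CDK6, and then cyclin E with CDK2, phosphorylate the retinoblastoma protein and release E2F. The INK4 proteins bind CDK4 and CDK6, the CIP/KIP proteins act mainly on CDK2 complexes, and p53 induces Cdkn1a and Mdm2, the latter of which degrades p53. Cdkn2a encodes p16Ink4a and, from another first exon and reading frame, p19Arf, an inhibitor of Mdm2. In adult tissues, transcripts of Cdkn2a are known to be scarce and to build up with senescence, injury and age.

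The promoters of the 3 genes whose libraries separated by genotype are shown first, since Cdkn2a and Cdkn2b lie side by side and Cdkn3 lies apart from them. RefSeq entries matched 9 of the 10 genes, and Cdkn1c was the other. Each sequence below is the 250 bases before a transcription start, 5′ to 3′ on the transcribed strand, in build GRCm38.p6. Capitals mark CCAAT (the box bound by NF-Y), the letters TTTGAA (the cell cycle homology region of many mitotic genes) and the GC box GGGCGG, each read on both strands. The Cdkn2a distal start (that of p19Arf) is at chr4:89294620-89294869, minus strand, the proximal start (that of p16Ink4a) at chr4:89282193-89282442, minus strand, Cdkn2b at chr4:89311033-89311282, minus strand, and Cdkn3 at chr14:46760291-46760540, plus strand.
Cdkn2a distal: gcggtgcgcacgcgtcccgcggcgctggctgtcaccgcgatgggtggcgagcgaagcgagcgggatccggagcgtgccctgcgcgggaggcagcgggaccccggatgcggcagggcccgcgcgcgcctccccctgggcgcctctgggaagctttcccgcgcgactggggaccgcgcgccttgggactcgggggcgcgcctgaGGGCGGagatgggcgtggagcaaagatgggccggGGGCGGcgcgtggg
Cdkn2a proximal: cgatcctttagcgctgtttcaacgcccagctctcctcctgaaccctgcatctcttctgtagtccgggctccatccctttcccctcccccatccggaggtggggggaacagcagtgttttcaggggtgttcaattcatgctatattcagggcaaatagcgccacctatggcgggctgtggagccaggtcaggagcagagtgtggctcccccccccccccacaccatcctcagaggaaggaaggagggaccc
Cdkn2b: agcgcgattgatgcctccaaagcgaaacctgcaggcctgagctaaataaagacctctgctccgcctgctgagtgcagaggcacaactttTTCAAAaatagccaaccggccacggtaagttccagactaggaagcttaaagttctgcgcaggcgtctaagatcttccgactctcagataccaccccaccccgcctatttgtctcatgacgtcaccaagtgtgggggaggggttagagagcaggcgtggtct
Cdkn3: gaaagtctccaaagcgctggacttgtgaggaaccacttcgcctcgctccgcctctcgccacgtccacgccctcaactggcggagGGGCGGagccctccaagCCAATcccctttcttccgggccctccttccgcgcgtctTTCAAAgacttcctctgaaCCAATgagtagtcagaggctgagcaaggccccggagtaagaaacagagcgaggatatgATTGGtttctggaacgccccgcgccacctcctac

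The Cdkn3 window held CCAAT 3 times, TTTGAA 1 time and GGGCGG 1 time, whereas neither Cdkn2a window held CCAAT or TTTGAA. The distal Cdkn2a window held GGGCGG 2 times and the Cdkn2b window held TTTGAA 1 time. An E2F site (searched on both strands as TTTGGCGC and as TTTCCCGC and as TTTCGCGC and as TTTGCCGC) stood 1 time in the distal Cdkn2a window and in no other window of the 9 genes, and 1.86% of the promoters searched held one. Of 32851 promoters searched in the same way, 33.8% held CCAAT, 16% held TTTGAA and 32.7% held GGGCGG. Counted per gene, CCAAT and TTTGAA stood together in 1 of the 9 genes with an entry (11.1%), which was Cdkn3, and in 6.45% of all 27025 genes. These letters describe the windows and do not show that a factor bound there.

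Of the INK4 inhibitors, Cdkn2a and Cdkn2b were measured at higher levels in every DTRScxLin tendon than in any WT tendon, and Cdkn2c and Cdkn2d overlapped between the genotypes. Values are normalized counts, which are edgeR TMM-scaled counts at the mean library size. For replicates 1 to 3 in turn, Cdkn2a measured 13.2, 6.59 and 17.7 in WT libraries and 184, 47.8 and 116 in DTRScxLin libraries, and all later triplets keep this order. The lowest DTRScxLin library stood above the highest WT library, although DTRScxLin replicate 2 was well below the other two. The fitted level was 9.25-fold that of WT (95% interval 3.56 to 24.0), 3.21 on the log2 scale (standard error, SE, 0.59). This did not pass edgeR's quasi-likelihood test after Benjamini-Hochberg adjustment over all 17496 genes tested (adjusted p = 0.268, unadjusted p = 0.000782). DESeq2 gave an adjusted p of 5.80e-06 for Cdkn2a on the same counts. With the mean level of skeletal muscle markers as a covariate (the muscle covariate) the log2 fold change was 2.00 (edgeR adjusted p = 0.562).

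The Cdkn2a values rest on few reads. The WT libraries held 13, 7 and 17 counts, with Poisson 95% intervals of 6.92 to 22.2, 2.81 to 14.4 and 9.90 to 27.2, and the DTRScxLin libraries held 179, 50 and 113. These intervals cover counting error only, and none of the WT intervals reached the lower bound of 37.1 for DTRScxLin replicate 2. Both Cdkn2a transcripts were counted as 1 gene, so p16Ink4a and p19Arf cannot be told apart.

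Cdkn2b, which encodes p15Ink4b and is known as a TGF-beta-responsive inhibitor, measured 210.0, 202 and 221 in WT and 699.5, 359 and 441 in DTRScxLin libraries. The WT libraries lay close together, with a coefficient of variation of 4.51%, against 35.6% in DTRScxLin libraries. Its log2 fold change was 1.24 (SE 0.25), with an adjusted p of 0.274 from edgeR and of 0.000327 from DESeq2, and it was 0.75 with the muscle covariate (edgeR adjusted p = 0.674). The ratio of Cdkn2a to Cdkn2b was 0.0628, 0.0326 and 0.0798 in WT and 0.264, 0.133 and 0.263 in DTRScxLin replicates 1 to 3, so that these ratios did not overlap either. Mtap, the neighbour of the pair on the other side of Cdkn2a, had a log2 fold change of 0.29 (SE 0.11, edgeR adjusted p = 0.429), and its libraries overlapped.

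Cdkn2c (p18Ink4c) measured 916, 754 and 769 in WT and 1233, 892 and 1031 in DTRScxLin libraries. DTRScxLin replicate 2 fell within the WT range, and the log2 fold change was 0.37 (SE 0.14, edgeR adjusted p = 0.434). It was 0.17 with the muscle covariate and 0.24 without DTRScxLin replicate 1. Cdkn2d (p19Ink4d) measured 695, 598 and 757 in WT and 823, 666 and 652 in DTRScxLin libraries, which overlapped (log2 fold change 0.06, SE 0.14, edgeR adjusted p = 0.896).

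**Figure D1:**
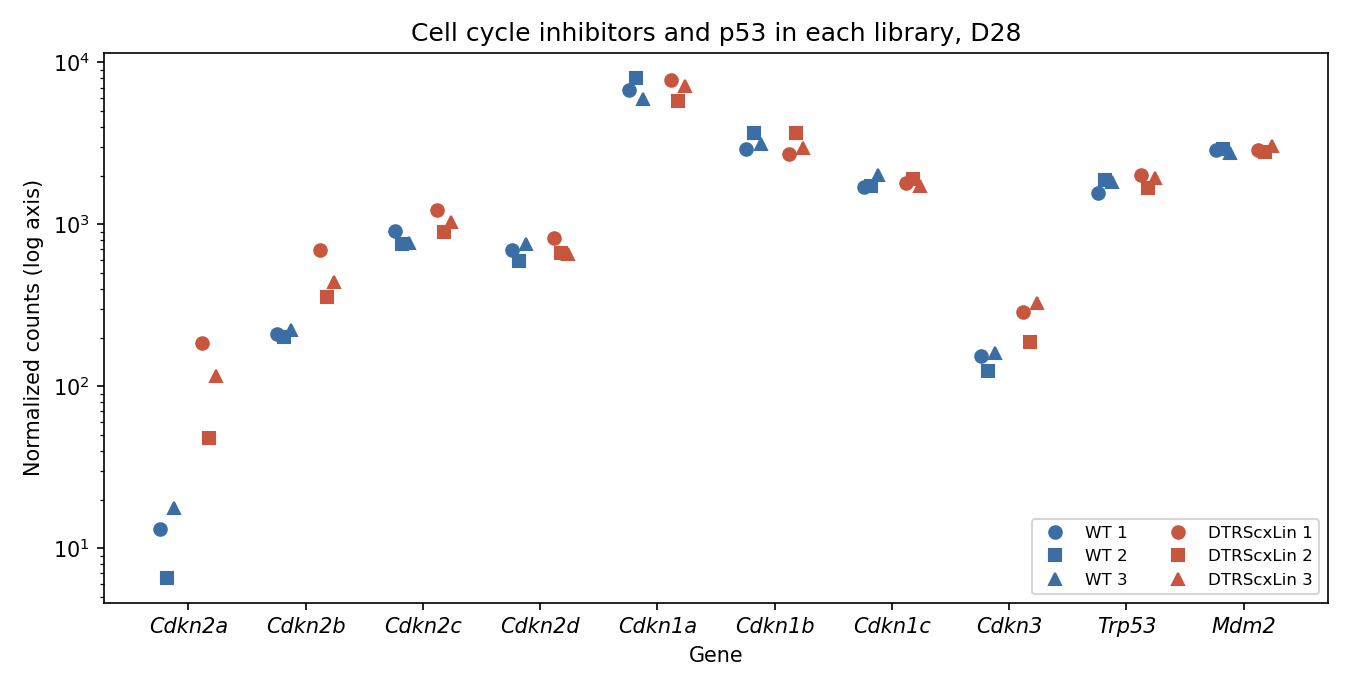
Normalized counts (log axis) of the 10 genes in each of the 6 libraries, WT in blue and DTRScxLin in red, with a marker shape for each replicate number. Only Cdkn2a, Cdkn2b and Cdkn3 show no overlap between genotypes, and DTRScxLin replicate 2 (square) is the lowest DTRScxLin library in all 3.

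Cdkn3, a dual-specificity phosphatase that acts on CDK1 and CDK2 and is itself transcribed mainly in dividing cells, was the other gene without overlap. It measured 154, 124 and 161 in WT and 286, 187 and 327 in DTRScxLin replicates 1 to 3. All DTRScxLin libraries were above all WT libraries, with DTRScxLin replicate 2 again the lowest. The log2 fold change was 0.86 (SE 0.25), with an adjusted p of 0.353 from edgeR and of 0.0423 from DESeq2, and it was 0.45 with the muscle covariate (edgeR adjusted p = 0.820).

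The CIP/KIP inhibitors showed small differences next to their spread. Cdkn1a, which encodes p21 and is the best known p53 target, measured 6754, 8022 and 5929 in WT and 7826, 5754 and 7192 in DTRScxLin libraries. The ranges of the genotypes nearly coincided, and the 95% interval of the log2 fold change ran from -0.35 to 0.36 (edgeR adjusted p = 0.993). Cdkn1b (p27) measured 2907, 3646 and 3132 in WT and 2727, 3686 and 2943 in DTRScxLin libraries. Its libraries overlapped, with a log2 fold change of -0.05 and an interval of -0.37 to 0.27. Cdkn1c (p57), an imprinted inhibitor, measured 1695, 1728 and 2032 in WT and 1792, 1902 and 1736 in DTRScxLin libraries, with an interval of -0.23 to 0.22. These libraries overlapped too.

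Trp53, which encodes p53, measured 1565, 1874 and 1815 in WT and 2029.6, 1669.7 and 1947 in DTRScxLin libraries. DTRScxLin replicate 2 was within the WT range, and the log2 fold change was 0.10 (SE 0.11, interval -0.15 to 0.36, edgeR adjusted p = 0.745). Mdm2 measured 2881, 2943 and 2757 in WT and 2869, 2783 and 3043 in DTRScxLin libraries, among the smallest spreads of the 10 genes. The interval of its log2 fold change ran from -0.16 to 0.20 (edgeR adjusted p = 0.948). The distal Cdkn1a promoter holds the p53 response element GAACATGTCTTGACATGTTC at chr17:29090928-29090947, plus strand, GRCm38.p6, shown here since Cdkn1a, like Mdm2, is a known p53 target. It departs from the 20-base p53 consensus by 1 base, an allowance made after the exact consensus matched none of the 9 genes with an entry, and 0.0457% of the 32851 promoters matched with it.

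Counted together, 3 of the 10 genes were higher in every DTRScxLin library than in every WT library and 7 overlapped, where 8.96% of all genes tested were higher and 7.85% lower without overlap. edgeR called 0 of the 10, as it called 0% of all 17496 genes in either direction (also with limma-voom and with the sex, muscle or keratinocyte covariate). At an unadjusted p under 0.05 edgeR placed 4 of the 10 higher and 0 lower, where 5.52% of all genes were higher and 5.45% lower. DESeq2 called 3 higher at an adjusted p under 0.05, where it called 1.18% of 17022 genes higher and 1.59% lower. Cdkn2a, Cdkn2b and Cdkn3 are drawn in the heatmap of cell cycle genes that the study picked on these same libraries, so these counts are not independent evidence of their direction.

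**Figure D2:**
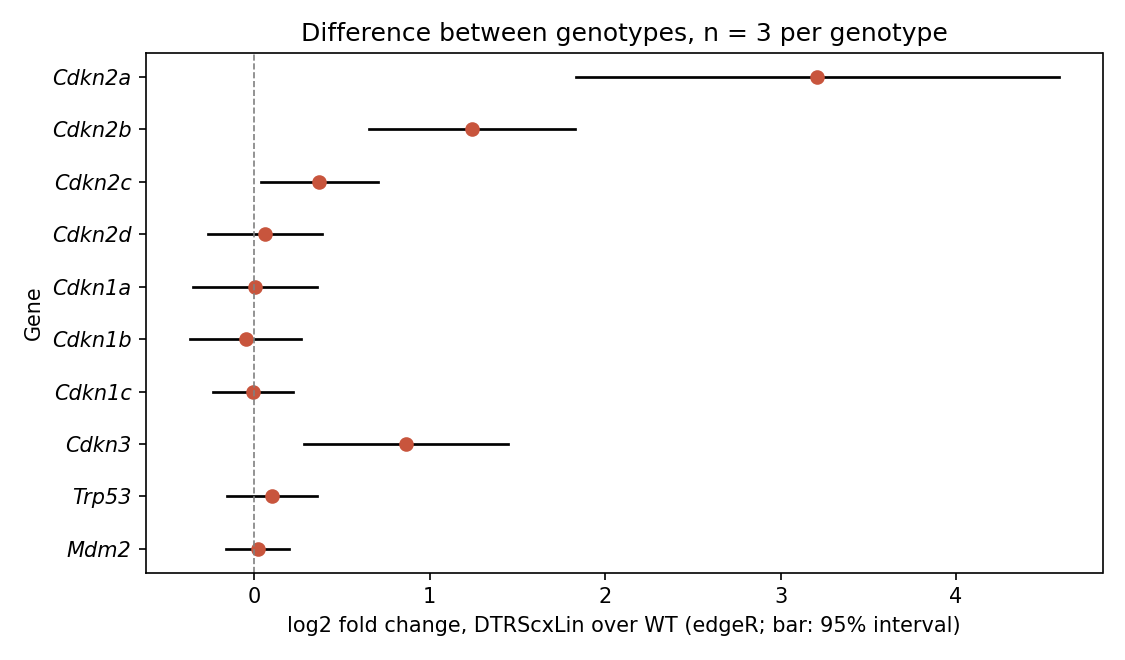
log2 fold change of DTRScxLin over WT for the 10 genes (points) with edgeR's 95% interval (bars), n = 3 per genotype. The interval of Cdkn2a is the widest, from 1.83 to 4.59, and those of Cdkn2d, the CIP/KIP genes, Trp53 and Mdm2 span 0.

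Levels of different genes can be compared only per length, so CPM (counts scaled to a common library size) were divided by the length of the longest coding GENCODE vM21 transcript. On this scale (CPM per kb) Cdkn1a had the highest level in WT tendons, at 72.3 ± 11.0 (SD, n = 3). Cdkn1c followed at 20.8 ± 2.13, Trp53 at 20.4 ± 1.92 and Mdm2 at 19.8 ± 0.656, and these neighbours overlapped in range. Cdkn1b was next at 15.5 ± 1.81, then Cdkn2d at 10.5 ± 1.23 and Cdkn2c at 7.17 ± 0.791, none of which overlapped the gene before it in WT. Cdkn2b stood at 3.31 ± 0.149, Cdkn3 at 1.64 ± 0.219 and Cdkn2a at 0.304 ± 0.136. In DTRScxLin tendons Cdkn2a stood at 2.83 ± 1.66 and Cdkn2b at 7.83 ± 2.79, and Cdkn2a remained the lowest of the 10, although its range now overlapped that of Cdkn3 at 2.98 ± 0.800.

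**Figure D3:**
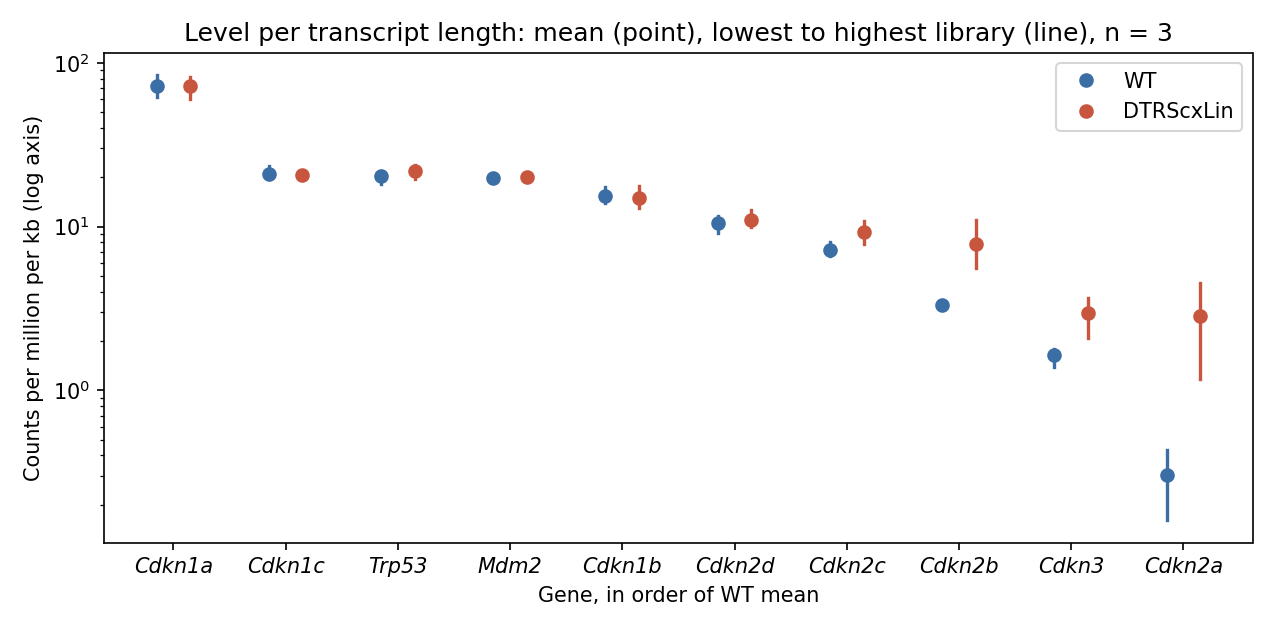
CPM per kb of transcript (log axis) for the 10 genes in order of their WT mean, with the mean as a point and a line from the lowest to the highest of 3 libraries. Cdkn1a leads at 72.3 in WT, and Cdkn2a moves from 0.304 in WT to 2.83 in DTRScxLin tendons.

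The genes that the inhibitors act on were read next, from lists of known pathway genes. All 16 cyclins and CDKs had a higher fitted level in DTRScxLin tendons, with a median log2 fold change of 0.37 against 0.01 over all genes tested and 51.5% of all genes fitted higher. None passed edgeR's adjusted test, and 8 had an unadjusted p under 0.05, where 5.52% of all genes were higher at that p. DESeq2 called 2, Cdk6 and Ccna2, where it called 1.18% of all genes higher. The study also drew both among the genes it picked on these libraries. With the keratinocyte covariate the median was 0.24. Cdk6, the kinase bound by INK4 proteins, measured 1968, 1708 and 2039 in WT and 2641, 2484 and 2825 in DTRScxLin libraries, which did not overlap (log2 fold change 0.48, SE 0.10, edgeR adjusted p = 0.274). Cdk7, the CDK-activating kinase, also did not overlap (0.28, SE 0.08), whereas the mitotic cyclin Ccnb2 (0.82, SE 0.28) and Ccna2 (0.75, SE 0.25) did. Of 13 pocket proteins and E2F genes, 7 were fitted higher and the median was 0.09 (0.05 without DTRScxLin replicate 3 and 0.06 without WT replicate 3). Rbl1, which encodes p107, had a log2 fold change of 0.35 (SE 0.12) while E2f6 was at -0.32 (SE 0.14), Tfdp1 at 0.17 (SE 0.07) and E2f8 at 0.48 (SE 0.27).

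Of the 20 mitotic genes, 19 were fitted higher and the median log2 fold change was 0.67, which was 0.17 with the muscle covariate. edgeR called none of them. At an unadjusted p under 0.05, 7 were higher and 1 lower, where 5.52% of all genes were higher and 5.45% lower. DESeq2 called 1, the checkpoint kinase Bub1, also picked by the study, where it called 1.18% of all genes higher. Bub1 measured 238, 154 and 122 in WT and 428, 234 and 381 in DTRScxLin libraries, and DTRScxLin replicate 2 fell just within the WT range (log2 fold change 1.02, SE 0.32). Mad2l1 (0.45, SE 0.15) did not overlap, while Cdc20 (0.76, SE 0.29) and Nusap1 (0.83, SE 0.30) did. The 1 gene fitted lower was the securin Pttg1 at -0.33 (SE 0.14), named after its value was seen.

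The p53 pathway outside the 10 genes showed medians near that of all genes. The median log2 fold change of the 32 p53 targets was 0.05, from 0.01 without DTRScxLin replicate 1 to 0.08 without WT replicate 3, and -0.02 with the muscle covariate. Of these targets 20 were fitted higher, and 0 were called by edgeR or DESeq2. At an unadjusted p under 0.05, 0 were higher and 2 lower, where 5.52% of all genes were higher and 5.45% lower. The 2 were Tigar, a regulator of glycolysis, at -0.42 (SE 0.13) and the DNA repair gene Xpc at -0.26 (SE 0.09). Polk was at 0.23 (SE 0.11) and Trp53inp1 at 0.17 (SE 0.09). The 21 p53 regulators had a median of 0.03, from -0.0031 without DTRScxLin replicate 2 to 0.07 without WT replicate 1, with none under an unadjusted p of 0.05 in edgeR and none called by DESeq2. The smallest p among them belonged to Chek1 at 0.63 (SE 0.27), Trp53bp1 at 0.17 (SE 0.08), Npm1 at 0.23 (SE 0.11) and Atm at 0.30 (SE 0.15). The lowest target was Perp, named after its values were seen, at 13592, 7357 and 292 in WT and 181, 233 and 1404 in DTRScxLin libraries. Keratinocyte markers made up 0.321%, 0.196% and 0.00283% of counts in WT and 0.000881%, 0.00201% and 0.0283% in DTRScxLin replicates 1 to 3, and their part in the Perp values was not tested.

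Regulators of the INK4 locus, mostly Polycomb genes that are known to hold Cdkn2a silent, did not share a direction. Of 22 tested, 9 were fitted higher and 13 lower, with a median log2 fold change of -0.06, and edgeR called none. The median was -0.15 without DTRScxLin replicate 1, 0.02 without DTRScxLin replicate 2 and -0.18 with the muscle covariate. At an unadjusted p under 0.05, 2 were higher and 2 lower, where 5.52% of all genes were higher and 5.45% lower. DESeq2 called 1 lower, where it called 1.59% of all genes lower. Cbx7, a Polycomb reader, measured 1112, 1172 and 1088 in WT and 612, 927 and 668 in DTRScxLin libraries. All DTRScxLin libraries were below WT, and the log2 fold change was -0.61 (SE 0.16), with an adjusted p of 0.321 from edgeR and 0.0339 from DESeq2. The Polycomb ligase Rnf2 (0.31, SE 0.08) and its partner Bmi1 (0.22, SE 0.08) were higher without overlap, and Id1 (-0.66, SE 0.25) overlapped.

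Other regulators gave medians of 0.03 for 7 genes of p27 turnover and -0.01 for 12 TGF-beta, FoxO and Myc regulators, with none called by edgeR. The first was -0.05 without DTRScxLin replicate 2, and the second was -0.12 without DTRScxLin replicate 1 and -0.13 with the muscle covariate. Rnf123, a ubiquitin ligase for p27, measured 2632, 2799.6 and 1942 in WT and 1448, 1915 and 1545 in DTRScxLin libraries, lower without overlap (log2 fold change -0.59, SE 0.16). DESeq2 gave it an adjusted p of 0.0436 and edgeR one of 0.347. Cks1b and Skp2, which target p27 for degradation, were at 0.29 (SE 0.13) and 0.25 (SE 0.16), and Rbx1 was at -0.04 (SE 0.09). Klf4, a known activator of Cdkn1a, was at -0.30 (SE 0.10), Foxo1 at -0.18 (SE 0.09), Foxo4 at -0.20 (SE 0.11) and Smad2 at 0.13 (SE 0.08). In the imprinted region that holds Cdkn1c and, next to it, Igf2 and H19, the 7 tested genes had a median of 0.10 (-0.05 without WT replicate 1, 0.02 without DTRScxLin replicate 3 and 0.15 without WT replicate 3). H19 measured 5652, 10469.6 and 9869 in WT and 13129, 27784 and 32063 in DTRScxLin libraries (1.49, SE 0.41), without overlap. DESeq2 called 1 of the 7 higher, which was H19 (DESeq2 adjusted p = 0.0243). For H19 edgeR gave an adjusted p of 0.361, and it called 0 of the 7. Kcnq1 was at -0.52 (SE 0.28), Osbpl5 at 0.13 (SE 0.09) and Igf2 at 0.78 (SE 0.62).

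Of 29 tested genes associated with senescence, 23 were fitted higher, with a median log2 fold change of 0.17, where 51.5% of all genes were fitted higher. The list includes Lmnb1, which is known to fall in senescent cells, so its genes have no single expected direction. These counts and the median therefore do not measure senescence. The median was 0.02 without DTRScxLin replicate 1, 0.02 with the muscle covariate and 0.10 without WT replicate 2, and 0.29 without WT replicate 1 and 0.27 without DTRScxLin replicate 2. edgeR called none. At an unadjusted p under 0.05, 5 were higher, Lmnb1 among them, and 0 lower, where 5.52% of all genes were higher and 5.45% lower. DESeq2 called 2, among them Cxcl1, where it called 1.18% of all genes higher. The chemokine Cxcl1 measured 100.5, 171 and 117 in WT and 328, 584 and 237 in DTRScxLin libraries, without overlap (1.56, SE 0.37). Timp1, an inhibitor of matrix metalloproteinases, did not overlap either (0.63, SE 0.22). Lmnb1, a nuclear lamin known to be lost in senescent cells, was at 0.69 (SE 0.26), with overlap. Markers of neutrophils summed to 22.9, 21.6 and 6.89 CPM in WT and 187, 29.3 and 12.6 in DTRScxLin libraries, and their part in the chemokine values was not tested.

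**Figure D4:**
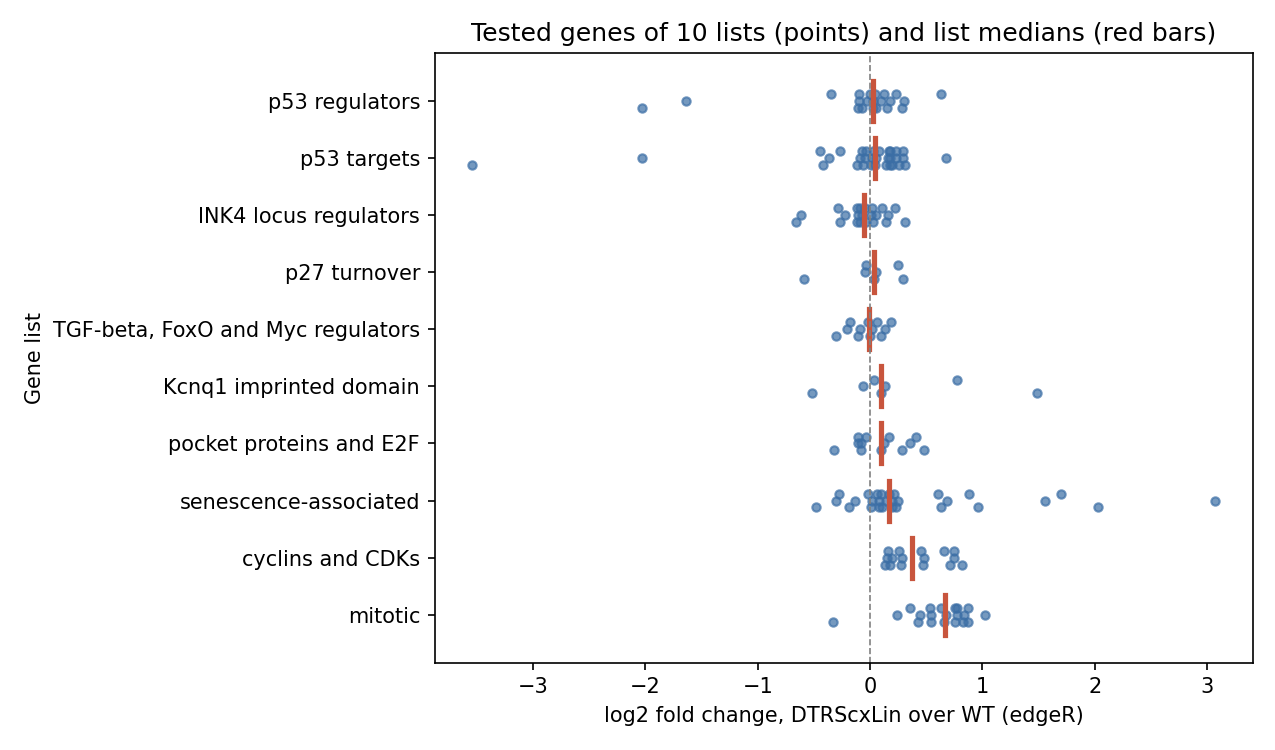
log2 fold change of DTRScxLin over WT for every tested gene of 10 pathway lists (points), with list medians as red bars. All cyclins and CDKs (median 0.37) and 19 of 20 mitotic genes (median 0.67) lie to the right of 0, with Pttg1 at -0.33 to the left, while the medians of p53 targets (0.05) and regulators (0.03) lie near it.

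The libraries of the DTRScxLin group differed among themselves in tissue content. Skeletal muscle markers made up 2.02%, 1.73% and 1.39% of counts in WT and 0.258%, 1.82% and 0.485% in DTRScxLin replicates 1 to 3. DTRScxLin replicate 2, the lowest DTRScxLin library for Cdkn2a, Cdkn2b and Cdkn3, was thus the one with as much muscle RNA as WT, and it was also the lowest for the mitotic list. With the muscle covariate the log2 fold changes of Cdkn2a, Cdkn2b and Cdkn3 were 2.00, 0.75 and 0.45, against 3.21, 1.24 and 0.86 without it. None of the 3 was called by edgeR in either fit. Since edgeR called 0% of all genes in both fits, the calls cannot show whether the covariate had an effect. Without DTRScxLin replicate 2 their log2 fold changes were 3.58, 1.43 and 1.07, and edgeR called all 3, together with 0.572% of 17998 genes higher and 2.45% lower. Tendon markers were present in all 6 libraries, at 2.17%, 2.49% and 2.61% of counts in WT and 3.13%, 2.60% and 3.09% in DTRScxLin tendons, led by Col1a1. Their mean log2 CPM relative to WT was -0.20, 0.01 and 0.19 in WT and 0.27, 0.33 and 0.28 in DTRScxLin libraries, without overlap. Of the 7 tendon markers, 6 were fitted higher and 3 had an unadjusted p under 0.05, edgeR called 0 and DESeq2 called 1. Among all genes, 51.5% were fitted higher, 5.52% were higher at that p and DESeq2 called 1.18% higher. Of 5 adipocyte markers, 4 were lower in DTRScxLin libraries without overlap and DESeq2 called 3, with a mean log2 CPM relative to WT of -3.03, -1.36 and -2.40 in DTRScxLin replicates 1 to 3. Of 5 erythroid markers, 4 were lower without overlap and DESeq2 called 4, with means of -1.22, -0.66 and -1.37. Among all genes, 7.85% were lower without overlap, and DESeq2 called 1.59% lower. The 4 mast cell markers had means of -2.30, -0.22 and -1.54, and DESeq2 called 0 of them. DTRScxLin replicate 2 was the least shifted in these 3 lists. It was the most shifted in the list of 8 myogenic genes, with means of -0.85, 1.38 and 0.57 in DTRScxLin replicates 1 to 3 and 2 genes called higher by DESeq2. All 5 mural markers were fitted lower and DESeq2 called 1 of them. Their means were -0.09, -0.14 and 0.23 in WT and -0.37, -0.44 and -0.46 in DTRScxLin libraries, without overlap. DTRScxLin replicate 2 lay between the others there. edgeR called no marker of these 5 lists. Cartilage markers had means of 0.05, 0.02 and -0.07 in WT and -0.55, -0.44 and -0.42 in DTRScxLin libraries, without overlap. Of the 4 cartilage markers tested, 3 were fitted lower and DESeq2 called 1 lower. All 4 Schwann cell markers were fitted lower and DESeq2 called 1, with means of -0.95, -0.91 and 0.01 in DTRScxLin replicates 1 to 3. In both lists edgeR called 0. The part of these cell types in the values of Cdkn2a, Cdkn2b and Cdkn3 was not tested. In bulk tissue, more cells that express a gene and more RNA per cell cannot be told apart.

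**Figure D5:**
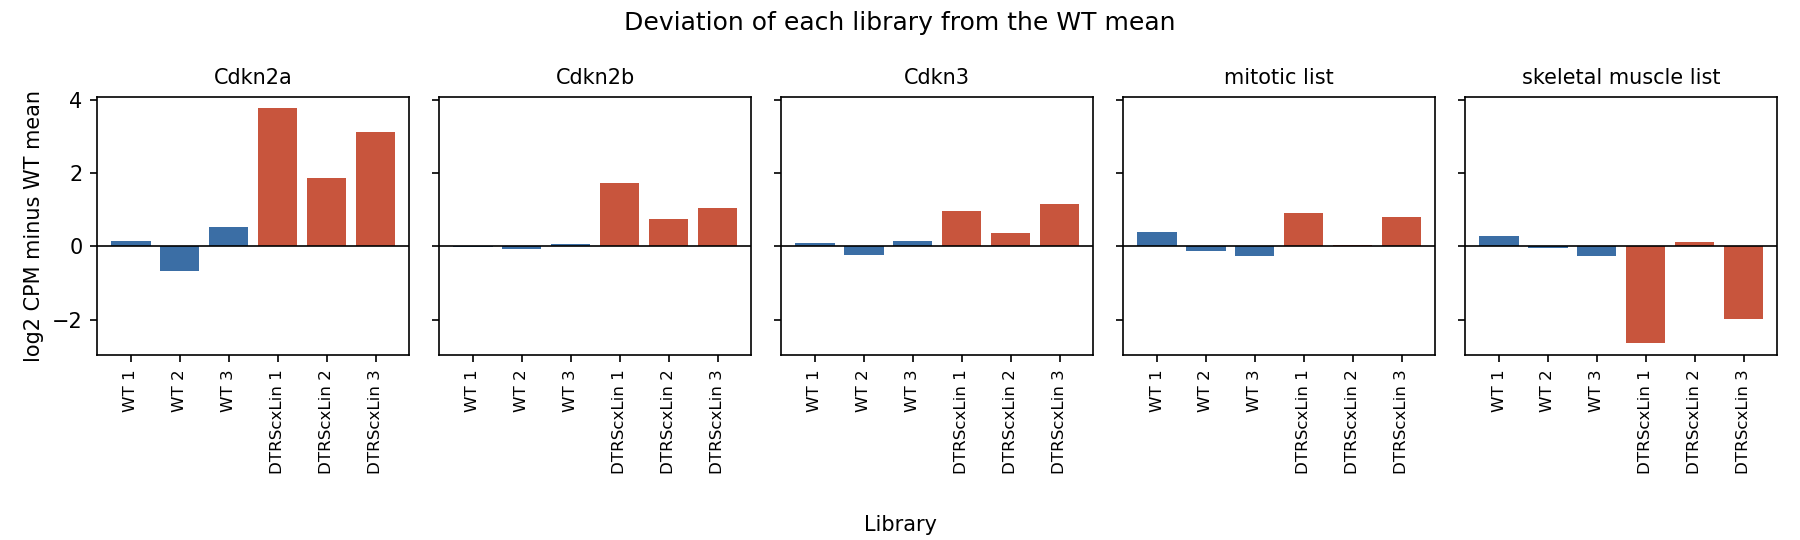
log2 CPM minus the WT mean in each library for Cdkn2a, Cdkn2b and Cdkn3 and for the mean of the mitotic and skeletal muscle lists. DTRScxLin replicate 2 has the lowest red bar of the first 4 panels and a muscle level near that of WT.

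The genes closest in profile to the 3 separated members were found by the root mean square (RMS) difference of centred log2 CPM over the 6 libraries, among 14408 genes. For Cdkn2a these were Mest (RMS 0.66), Cxcl3, Tro, Ptgs2 and Gm44275. For Cdkn2b they were Slit2 (0.16), Camk4, Tfpi2, Piwil2 and Gm44275, and for Cdkn3 2810433D01Rik (0.11), Diaph3, Garem2, Insig1 and Capn6. Mest, an imprinted gene, measured 3257, 2845 and 3418 in WT and 13557, 7415 and 16573 in DTRScxLin libraries. Slit2, a guidance ligand, measured 551, 530.0 and 569 in WT and 1375, 931 and 1207 in DTRScxLin libraries.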

How the data were processed

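Reads of 6 libraries (3 WT and 3 DTRScxLin) were cleaned with fastp and counted on genes with featureCounts by the authors, who deposited raw counts. The aligner, genome build, annotation and strand setting are not given in the sources used here, so overlapping genes may share reads, and the labels name 2 library kits. A second deposited table, a signal of size-factor normalized counts, equalled the counts divided by 1 size factor per library and served as an alternative (DESeq2 1.22.1 per the labels).

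The fit to raw counts used edgeR 4.0.16 in R 4.3.3 (filterByExpr, TMM, robust quasi-likelihood test, genotype as the single term), and p-values were Benjamini-Hochberg adjusted over 17496 genes at a threshold of 0.05. DESeq2 1.42.0 and limma 3.58.1 served as alternatives. DESeq2 was run in 3 versions of its independent filtering, and the values given are from the version set first (filtering level 0.05, genes with no counts removed). The other versions were run after its counts were seen beside an earlier count made from these data, and are given among the alternatives. The scripts were tested on simulated data. Figures were drawn with matplotlib 3.10.9.

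Members and gene lists were chosen with earlier results of these data known. All 10 members were named, with up to 4 genes of smallest p per list whose normalized counts averaged at least 50, and the 5 genes nearest in profile to Cdkn2a, Cdkn2b and Cdkn3. A gene that this rule names is not reported here. The samples came from separate tendons. No 2 libraries of a group agreed within sampling noise. Alternatives were other normalizations, filters, tests and covariates, and leaving out each library.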

Additional observations from a re-analysis of the deposited data

How the results depend on the processing

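With 3 libraries per genotype, edgeR called 0 of the 10 genes, 4 at an unadjusted p under 0.05. DESeq2 called 3 higher in each of its 3 versions, edgeR without a filter on low counts 2 (Cdkn2a and Cdkn2b), and edgeR without DTRScxLin replicate 2 called 3, so that leaving out 1 library gave 0 to 3. Over all genes, DESeq2 called 201 higher and 271 lower, and in the versions added after seeing the data 195 and 267 (default filtering level) and 197 and 269 (genes with no counts kept as well). No filter gave 45 higher and 38 lower, and leaving out 1 library gave 0 to 103 higher and 0 to 441 lower, the highest without DTRScxLin replicate 2. The replicate block called 1 gene lower and none of the 10. Deviations of same-numbered libraries correlated at -0.188, -0.149 and -0.684, and those of differently numbered libraries from -0.454 to 0.559. These values gave no sign of pairing by number. With 3 libraries per genotype they cannot show that none was present. Cdkn2a, Cdkn2b, Cdkn2c and Cdkn3 kept their direction under every alternative that tested them (Cdkn2a failed the filter of 10 counts in every library).

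The direction of 6 genes with log2 fold changes near 0 changed. With the muscle covariate the values were -0.23 for Cdkn1a, 0.15 for Cdkn1b, 0.025 for Cdkn1c, -0.068 for Cdkn2d, -0.07 for Trp53 and -0.016 for Mdm2. With library size alone they were -0.025 for Cdkn1a and -0.0059 for Mdm2, with 10 counts required in every library -0.0041 for Cdkn1a, with the sex covariate -0.0031 for Cdkn1a and 0.0086 for Cdkn1c, and with the keratinocyte covariate -0.047 for Cdkn2d. Leaving out 1 library gave -0.10 to 0.13 for Cdkn1a, -0.19 to 0.047 for Cdkn1b, -0.054 to 0.079 for Cdkn1c, -0.056 to 0.14 for Cdkn2d and -0.016 to 0.049 for Mdm2. The cause was not tested. Of 220 list medians under alternatives, 8 moved by more than the spread between libraries, among them that of the mitotic list, at 0.17 with the muscle covariate. Cdkn2a had 7 to 17 counts in WT libraries, and its coefficient of variation was 44.6% in WT and 58.8% in DTRScxLin libraries. How much low depth and how much spread between tendons add to the width of its interval was not tested.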
